A study of Mus musculus with 10 samples.

Results

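The genes described here are 10 members of the DNA damage checkpoint and p53 pathway: Atm, Atr, Topbp1, Chek1, Chek2, Trp53, Mdm2, Mdm4, Cdkn1a and Ccng1. They were chosen by name, and all 10 were found among the 55487 genes of the expression tables by Ensembl gene ID. Their levels come from RNA-seq of E14, a line of mouse embryonic stem cells, and the 3 replicates form a single group. The cells were unmodified as far as the labels say, and were grown in serum with LIF, a GSK inhibitor and a MEK1/2 inhibitor, with no agent that damages DNA among the listed treatments. The series also holds 7 R-loop mapping samples (MapR and BisMapR), which were not analysed here, so no difference between conditions was tested. The labels do not say whether the replicates were separate cultures, so the spread below may be technical.

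The checkpoint senses damaged DNA and stalled replication forks and holds the cell cycle while repair proceeds. ATR, bound to single-stranded DNA and activated by TOPBP1, signals mainly through CHEK1, whereas ATM responds to double-strand breaks and signals mainly through CHEK2. Both branches reach p53, a transcription factor that MDM2 and MDM4 keep in check, and p53 in turn activates genes such as Cdkn1a, Ccng1 and Mdm2. Embryonic stem cells cycle fast with short gap phases and are known for a weak arrest at the first gap phase after damage.

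The libraries held from 5787357 to 11420425 estimated counts. The levels are given as TPM, the authors' estimate of transcript abundance scaled by length and to the same total in every library, which allows genes to be compared. CPM, which divides a count by library depth and leaves length aside, is used where 1 gene is compared across replicates, with TMM scaling (edgeR's correction for library composition). Replicate 3 stood apart from the others in pairwise comparisons, each over the genes that passed a minimum of summed counts in that pair. Chi-square per degree of freedom was 26.1 against replicate 1 (15817 genes) and 18.3 against replicate 2 (14854 genes). Replicates 1 and 2 gave 6.08 (16003 genes). The statistic also grows with depth, which differed between libraries, and no p was computed from it. The cell type label was matched by its markers, with 6 of 6 pluripotency genes at a mean of at least 1 TPM and the lowest of them, Sox2, at 32.9 ± 7.08 TPM (SD, n = 3). Of 6 fibroblast markers, which would show feeder cells, Thy1 alone reached a mean of 1 TPM, at 2.50 ± 1.15 TPM (SD, n = 3). Pdgfrb was just below the limit at 0.977 ± 0.435 TPM (SD, n = 3). It had 203, 96 and 55 counts, more than Thy1 with 49, 27 and 11. Col3a1 and Postn had 0 counts in every library. The summed level of the 6 fibroblast markers was 4.57, 4.33 and 1.79 TPM in replicates 1, 2 and 3. No lineage marker of 7 reached a mean of 1 TPM, and their sum was at most 1.91 TPM. The highest, Sox1, had 0.733 ± 0.235 TPM (SD, n = 3), from 122, 67 and 44 counts.

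All 10 genes were expressed, each at a mean of at least 5 TPM, and 8 of them at 10 TPM or more. A mean of at least 1 TPM was reached by 19.8% of all genes and 44.2% of protein-coding genes. A mean of 5 TPM was reached by 10.7% of all genes and a mean of 10 TPM by 6.42%. Of the 21897 protein-coding genes, which include all 10 members, 5304 reached 5 TPM and 3069 reached 10 TPM. The median of the 10 in log2(TPM + 1) was 4.21 ± 0.37 (SD, n = 3), beside 2.70 ± 0.28 (SD, n = 3) over all genes with a mean of at least 1 TPM. Among protein-coding genes that reached 1 TPM, the members lay between the 53.6 percentile (Atm) and the 88.6 percentile (Mdm4). Their means ran from 6.31 to 25.8 TPM. In RNA from whole cultures, a level shared by all cells cannot be told apart from a higher level in a part of them, nor fewer expressing cells from less RNA per cell.

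**Figure D1:**
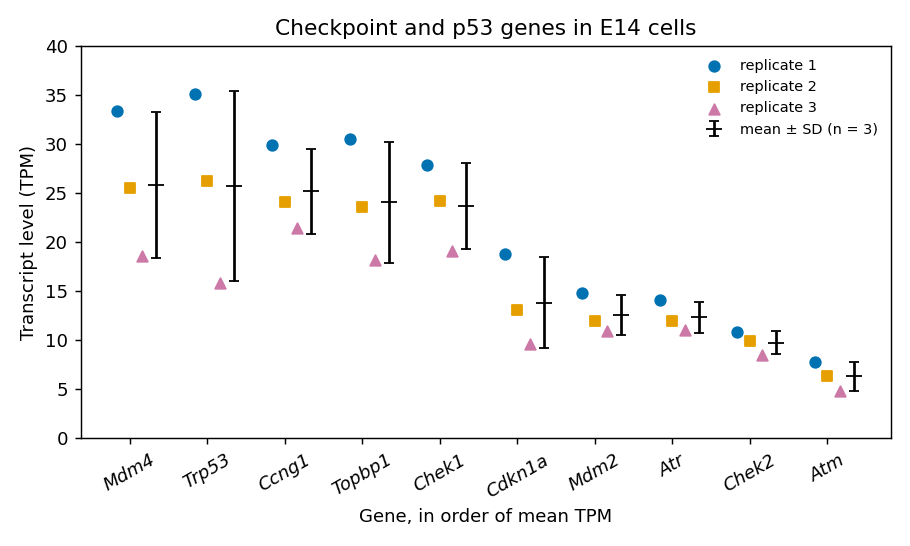
Transcript level in TPM (linear axis) of the 10 genes, in order of mean TPM, with 1 point per replicate and the mean ± SD (n = 3) in black. Mdm4, Trp53, Ccng1, Topbp1 and Chek1 form an upper group of similar means from 23.7 to 25.8 TPM, and Atm is lowest at 6.31 TPM; replicate 1 is highest and replicate 3 lowest for every gene.

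The apical kinases and their activator were all expressed, and the level of Atm was below that of Atr in each library. Atr (ENSMUSG00000032409, GRCm38 chromosome 9, 95857597 to 95951781, plus strand) had 14.1, 11.9 and 11.02 TPM in replicates 1, 2 and 3, a mean of 12.4 ± 1.58 TPM (SD, n = 3). Atm (ENSMUSG00000034218, chromosome 9, 53439149 to 53536740, minus strand) had 7.83, 6.31 and 4.79 TPM, a mean of 6.31 ± 1.52 TPM (SD, n = 3). The 2 sets of values did not overlap. Atr exceeded Atm 1.99-fold, and the log2 ratio of Atm to Atr within a library was -0.99 ± 0.19 (SD, n = 3). By CPM, which ignores length, the excess of Atr was 1.37-fold. Atm makes the longest transcript of the 10 genes, up to 9819 nt in the annotation. Its mean transcript length as estimated by the authors was 8764, 8159 and 9798 nt in the 3 libraries, so the length that divides its counts differed between them.

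Topbp1 (ENSMUSG00000032555, chromosome 9, 103305215 to 103350428, plus strand), whose product activates ATR at stalled forks, had 30.5, 23.6 and 18.2 TPM, a mean of 24.1 ± 6.17 TPM (SD, n = 3). It was above Atr and Atm in every library and had the highest mean CPM of the 10 genes.

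The effector kinases differed in the same direction as the apical kinases, with the ATR-branch gene above the ATM-branch gene. Chek1 (ENSMUSG00000032113, chromosome 9, 36708482 to 36727065, minus strand), which restrains CDC25 phosphatases, had 27.9, 24.2 and 19.1 TPM, a mean of 23.7 ± 4.39 TPM (SD, n = 3). Chek2 (ENSMUSG00000029521, chromosome 5, 110839979 to 110874145, plus strand) had 10.8, 9.96 and 8.50 TPM, a mean of 9.77 ± 1.18 TPM (SD, n = 3). Every Chek1 value lay above every Chek2 value. The excess was 2.57-, 2.43- and 2.25-fold in replicates 1, 2 and 3. The log2 ratio was 1.27 ± 0.10 (SD, n = 3), the smallest spread in TPM of the 5 ratios examined. In CPM its SD was 0.19, above 0.09 for Atm to Atr and 0.08 for Mdm2 to Mdm4. The excess of Chek1 rests in part on the transcript lengths. With the longest annotated transcript of each gene in place of the authors' length, the log2 ratio was 0.67 ± 0.19 (SD, n = 3). Chek2 also had the fewest counts of the members, 434, 258 and 256, for which counting error alone gives a coefficient of variation of 6.25% in the shallowest library.

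Trp53 (ENSMUSG00000059552, chromosome 11, 69580359 to 69591873, plus strand), which encodes p53, had 35.1, 26.2 and 15.8 TPM, a mean of 25.7 ± 9.67 TPM (SD, n = 3). It was the highest of the members in replicates 1 and 2 and ranked 5 in replicate 3. Its highest value was 2.22 times its lowest, the widest spread in TPM of the 10. Its counts were not whole in any library (1600.92, 834.98 and 507.98), which in these estimated counts marks reads shared with other genes. The share so divided was not tested.

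The p53 inhibitors differed from each other, with Mdm4 above Mdm2 in every library. Mdm2 (ENSMUSG00000020184, chromosome 10, 117688875 to 117710758, minus strand), the ubiquitin ligase that degrades p53 and is itself a p53 target, had 14.8, 11.9 and 10.9 TPM, a mean of 12.6 ± 2.01 TPM (SD, n = 3). Mdm4 (ENSMUSG00000054387, chromosome 1, 132959484 to 133030561, minus strand), a relative that blocks p53 and pairs with MDM2, had 33.4, 25.5 and 18.6 TPM, a mean of 25.8 ± 7.41 TPM (SD, n = 3). The values did not overlap. Mdm4 exceeded Mdm2 2.02-fold in TPM and 4.46-fold in CPM, since its transcripts are longer (a mean of 4029 nt beside 1905 nt). The log2 ratio of Mdm2 to Mdm4 was -1.01 ± 0.22 (SD, n = 3). The estimated length of Mdm2 was 2060, 1969 and 1686 nt in replicates 1, 2 and 3, in a gene with 9 listed transcripts of 474 to 3145 nt. Trp53 exceeded Mdm2 2.37-, 2.20- and 1.44-fold, with a log2 ratio of 0.97 ± 0.38 (SD, n = 3), the widest spread in TPM of the 5 ratios. In CPM its SD was 0.22, below 0.24 for Ccng1 to Cdkn1a.

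Among the members that p53 activates, Ccng1 was above Cdkn1a in every library. Cdkn1a (ENSMUSG00000023067, chromosome 17, 29090976 to 29100727, plus strand), which encodes the CDK inhibitor p21, had 18.8, 13.1 and 9.62 TPM, a mean of 13.8 ± 4.61 TPM (SD, n = 3). This placed it at the 77.4 percentile of protein-coding genes with at least 1 TPM, from 908, 438 and 328 counts. Ccng1 (ENSMUSG00000020326, chromosome 11, 40748552 to 40755311, minus strand), which encodes cyclin G1, had 29.9, 24.1 and 21.5 TPM, a mean of 25.2 ± 4.32 TPM (SD, n = 3). The 2 genes did not overlap in TPM. The excess of Ccng1 was 1.59-, 1.84- and 2.23-fold, with a log2 ratio of 0.90 ± 0.24 (SD, n = 3), and 3.54-fold in CPM. The authors' mean transcript length of Ccng1 was 3512 nt in every library, the length of its longest annotated transcript.

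**Figure D2:**
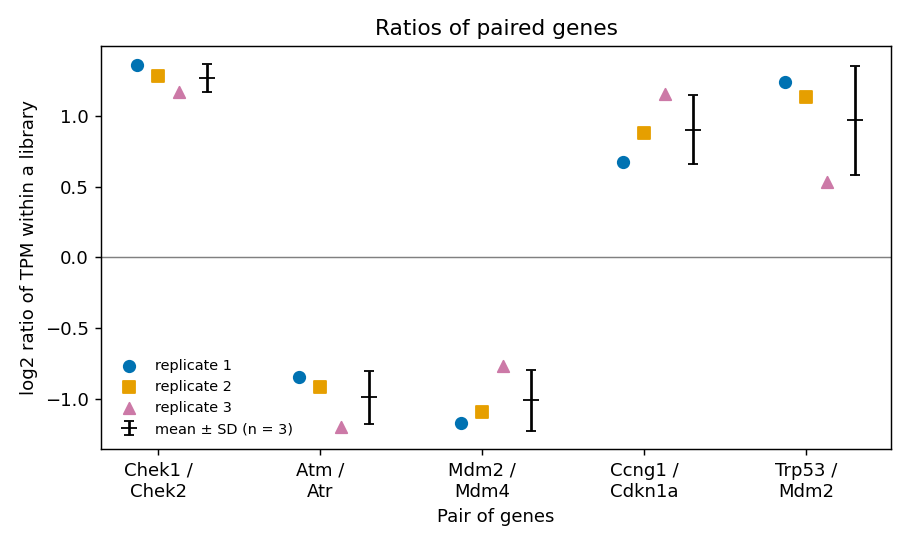
Log2 ratio of TPM between paired genes within each library, with 1 point per replicate and the mean ± SD (n = 3) in black. Chek1 over Chek2, Ccng1 over Cdkn1a and Trp53 over Mdm2 are above 0 in 3 of 3 libraries, and Atm over Atr and Mdm2 over Mdm4 are below 0 in 3 of 3.

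Each of the 5 ratios had the same sign in 3 of 3 libraries. The exact two-sided sign-flip permutation test gave p = 0.25 for each ratio, adjusted p = 0.25 over the 5 (Benjamini-Hochberg), and 0.25 is the smallest p that 3 libraries allow. The pairs were chosen with earlier results of these data known.

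In order of mean TPM, the genes fell into steps that exceeded the spread and neighbours that did not. A step was counted where the upper gene was higher in 3 of 3 libraries and the mean log2 difference exceeded its SD. Among Mdm4, Trp53, Ccng1, Topbp1 and Chek1, no gene stood a step above the next in the order. Chek1 stood above Cdkn1a by 0.82 ± 0.22 in log2 TPM (SD, n = 3), with no overlap of values. Cdkn1a did not stand a step above Mdm2, nor Mdm2 above Atr, and Mdm2 and Atr had 11.9 TPM each in replicate 2. Atr stood above Chek2 by 0.34 ± 0.07 and Chek2 above Atm by 0.65 ± 0.18 in log2 TPM (SD, n = 3). Chek2 ranked 9 and Atm 10 in every library. As a description over the 10 genes, Spearman's rho of the members' TPM was 0.95 for replicates 1 and 2, and 0.73 and 0.79 for replicate 3 against each of them.

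The level nearest to each member was sought among the other 93 genes of the lists used here, by the largest absolute difference in log2(TPM + 1) over the 3 replicates. Atr and Mdm2 were nearest to each other at 0.07, and Topbp1 and Chek1 at 0.13. Mdm4 and Trp53 were also nearest to Topbp1, at 0.13 and 0.20. Cdkn1a was nearest to Aen at 0.15 and Ccng1 to Trp53inp1 at 0.13, both from the list of p53 targets. Chek2 was nearest to Timeless at 0.13, and Atm to Cdc25b at 0.06. With 3 replicates of 1 group, this is a likeness of level only.

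TPM was highest in replicate 1 and lowest in replicate 3 for 10 of 10 genes. The same held for 72.1% of the 9680 protein-coding genes with a mean of at least 1 TPM. The median log2 difference in TPM of replicate 1 over replicate 3 was 0.63 for the members and 0.62 for the 9672 of those genes with a value above 0 in every library. Genes of effective length under 100 nt, which include small noncoding RNAs, took 60.3%, 65.8% and 63.9% of all TPM in replicates 1, 2 and 3. Leaving them out of the scaling raised the members' log2 TPM by 1.33, 1.55 and 1.47 in that order. With them left out, the members' median log2(TPM + 1) was 5.87, 5.71 and 5.23 in replicates 1, 2 and 3. Over the genes with a mean of at least 1 TPM it was 4.18, 4.07 and 3.68. The part of the short genes in the difference between replicates was not tested.

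With TMM-scaled CPM, the members had no shared direction. Replicate 3 was the lowest of the 3 for Trp53, Mdm4, Cdkn1a, Mdm2 and Topbp1, and the highest for Chek2, Ccng1, Atm and Atr. Over 8297 genes that averaged 100 counts or more, replicate 3 was lowest in 40.9% and highest in 43.1%, near the members' 5 and 4 of 10. Trp53 had 134.1, 125.8 and 95.7 TMM-scaled CPM, which put replicate 3 0.29 below the gene's mean on the log2 scale, at the 14.04 percentile of all genes tested. Cdkn1a had 76.1, 66.0 and 61.8 TMM-scaled CPM, also lowest in replicate 3. Chek2 differed in the other direction, with 36.4, 38.9 and 48.2 TMM-scaled CPM. Of Trp53, Mdm2 and Mdm4, Mdm2 varied least for its level, at 64.7, 62.2 and 60.7 TMM-scaled CPM.

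Whether a gene's replicates scattered more than its abundance predicts was asked with a goodness-of-fit test in edgeR. It called 0 of the 10 members, all of which passed the filter on low counts, and 232 of 12577 genes, 1.84%, with the Benjamini-Hochberg adjusted p below 0.05. At an unadjusted p under 0.05 it also called 0 of the 10, beside 6.96% of all genes tested, so at either threshold few or none of any 10 genes would be called. The lowest unadjusted p was that of Trp53, at 0.314. With DESeq2 size factors the count was again 0 of 10, beside 1.84% of all genes tested. In the same libraries the deviation of each gene followed its length, with Spearman's rho over the 8297 genes of 0.46, 0.22 and -0.47 in replicates 1, 2 and 3 (genes are not independent replicates). With a smooth correction for length the members' lowest unadjusted p was that of Atm, at 0.154, with 0 of 10 called beside 1.49% of all genes tested.

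**Figure D3:**
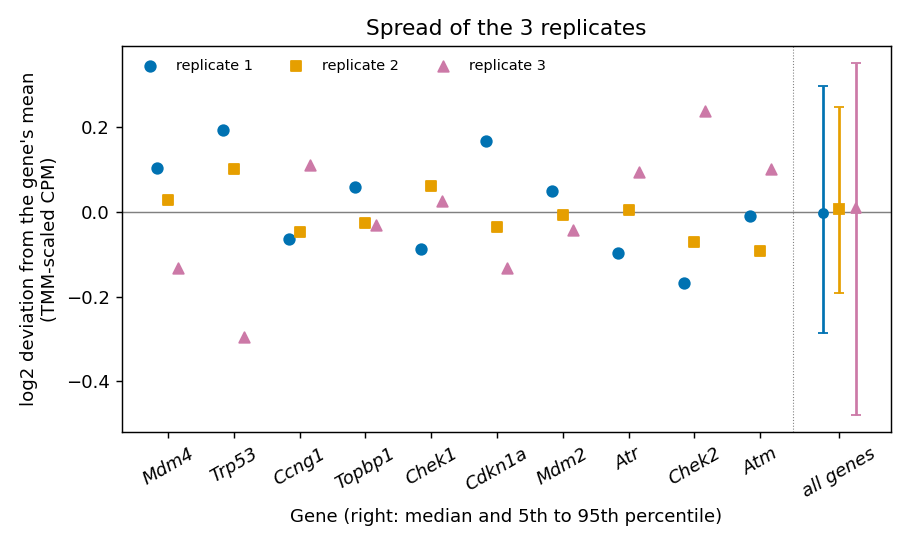
Log2 deviation of TMM-scaled CPM from the mean over the 3 replicates, with 1 point per replicate for each gene; at the right, the median and the 5th to 95th percentile over the 8297 genes that averaged 100 counts or more. Trp53 in replicate 3, at -0.29, and Chek2 in replicate 3, at 0.24, are the members farthest from 0, and both lie within the range for replicate 3 over all genes.

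The starts of several members lie close to a gene on the opposite strand. The annotated bodies of Trp53, Atm, Chek2 and Topbp1 share 0 bases with these partners, and Atr shares 726 bases with the gene at its start. The strand setting of the authors' counting is not given in the sources used here, and its effect on the values was not tested. Such closeness bears on a series that maps R-loops by strand. Trp53 starts 104 bases from Wrap53 (chromosome 11, 69561758 to 69580255, minus strand), whose product helps telomerase RNA reach Cajal bodies. Wrap53 had 4.78, 3.05 and 3.03 TPM, and Trp53 exceeded it 7.34-, 8.59- and 5.21-fold. Atm starts 307 bases from Npat (chromosome 9, 53537047 to 53574342, plus strand), a coactivator of histone genes. Npat had 11.3, 8.64 and 7.07 TPM, above Atm in 3 of 3 libraries, with a log2 ratio of Atm to Npat of -0.51 ± 0.06 (SD, n = 3). Chek2 starts 202 bases from Hscb (chromosome 5, 110829070 to 110839777, minus strand), a cochaperone of iron-sulfur cluster assembly. Hscb had 7.81, 7.38 and 3.77 TPM, below Chek2 in 3 of 3 libraries. Of Trp53, Atm and Chek2, Atm was thus below its partner and the other 2 were above theirs.

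Topbp1 starts 133 bases from 1300017J02Rik, which had 2, 6 and 2 counts, and Atr starts 725 bases from the antisense gene 1700065D16Rik, which had 1, 3 and 0 counts. Mdm4 holds the processed pseudogene Gm29257 on the other strand, at 0.337 ± 0.18 TPM (SD, n = 3). A second antisense gene over the end of Atr, Gm16794, had 7, 5 and 1 counts, the small nuclear RNA gene Gm24004 within Atr had 0.54, 0 and 0, and AC167363.2, opposite Cdkn1a, had 0 in every library. Each of these partners had at most 7 counts in any library.

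The stretches between the starts of Atm and Chek2 and their partners are shown because both genes of each pair were measured. They are RefSeq promoter sequence of GRCm38.p6, read 5′ to 3′ on the member's strand, and parts covered by an annotated exon were left out.
Atm, chr9:53536741-53536921, minus strand: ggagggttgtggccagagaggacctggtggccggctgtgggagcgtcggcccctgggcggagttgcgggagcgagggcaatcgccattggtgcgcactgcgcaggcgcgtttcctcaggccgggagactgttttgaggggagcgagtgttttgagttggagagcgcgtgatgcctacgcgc
Chek2, chr5:110839778-110839978, plus strand: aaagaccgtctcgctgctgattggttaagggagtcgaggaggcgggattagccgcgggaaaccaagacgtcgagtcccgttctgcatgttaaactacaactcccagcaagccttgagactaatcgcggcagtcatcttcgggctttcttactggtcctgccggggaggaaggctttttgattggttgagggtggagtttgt
The Chek2 stretch is the whole gap between the annotated exons of the 2 genes, and the Atm stretch is the part of the gap nearest Atm. The word CCAAT, on either strand, occurs in the promoters of 5 of the 10 members (Atm, Chek2, Ccng1, Mdm2 and Trp53) and in 37.4% of all 32851 promoters of the same length. In Chek2 it lies on the opposite strand and begins 186 and 26 bases upstream of the RefSeq start.

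The promoters of the p53 gene, its inhibitor and its target genes are shown with the letters that match the consensus of a p53 half-site, the decamer that p53 dimers bind, in capitals. The window runs from 250 bases before to 50 after the RefSeq start, and 12 such windows matched the 10 members.
Cdkn1a, chr17:29090729-29090975, plus strand: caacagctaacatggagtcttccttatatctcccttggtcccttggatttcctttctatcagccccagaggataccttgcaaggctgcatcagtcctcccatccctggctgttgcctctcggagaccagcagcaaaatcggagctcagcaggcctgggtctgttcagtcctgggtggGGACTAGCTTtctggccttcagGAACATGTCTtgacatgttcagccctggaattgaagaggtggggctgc
Mdm2, chr10:117710759-117711008, minus strand: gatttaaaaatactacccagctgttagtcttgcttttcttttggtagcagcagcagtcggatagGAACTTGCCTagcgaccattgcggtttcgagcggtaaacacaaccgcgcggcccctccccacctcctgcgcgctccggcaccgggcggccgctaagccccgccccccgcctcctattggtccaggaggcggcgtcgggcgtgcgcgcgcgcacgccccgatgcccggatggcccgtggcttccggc
Ccng1, chr11:40755312-40755536, minus strand: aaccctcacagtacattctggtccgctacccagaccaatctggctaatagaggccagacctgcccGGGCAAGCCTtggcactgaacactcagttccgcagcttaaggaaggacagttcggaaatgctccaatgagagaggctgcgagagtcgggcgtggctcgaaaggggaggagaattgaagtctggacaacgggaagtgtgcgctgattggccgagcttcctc
Trp53, chr11:69580256-69580358, plus strand: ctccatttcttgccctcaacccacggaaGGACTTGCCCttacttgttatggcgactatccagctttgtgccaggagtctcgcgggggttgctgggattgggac
A half-site match occurred in 4 of the 12 windows, in 7 of 22 windows of other listed p53 targets and in 8.36% of all 32851 promoters. The 22 windows covered 17 of the 24 listed targets. The 4 member windows were those of Cdkn1a, Mdm2, Ccng1 and Trp53, and the windows of the checkpoint kinases, Topbp1 and Mdm4 held none. Of the 2 RefSeq starts of Cdkn1a, the window of the more downstream held no match. In the promoter shown, which belongs to the more upstream, there were 2 matches separated by 12 bases. Such pairs, 0 to 13 bases apart, occurred in 0.0731% of all promoters and in 0 of the 22 windows of other p53 targets. No mismatch was allowed, so the decamer tgacatgttc directly after GAACATGTCT was not marked, as its first letter departs from the consensus. A match is a string of letters and not a measured binding site. The 4 members with a match had means from 12.6 to 25.7 TPM, a range that also held Topbp1 and Chek1, which had none. Of the other words searched on both strands, TATAAA occurred in windows of Atm and Trp53 and in 13.6% of all promoters. The word GGCGGGAA, part of sites that E2F factors bind, occurred in the window of Chek1 and in 2.19% of all promoters. The word TTTGAA occurred in 0 of the 12 windows and in 17.9% of all promoters.

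The other genes of the pathway were taken from lists and placed by the same measures. Of 18 sensors and mediators of the checkpoint, 18 had a mean of at least 1 TPM, with a median log2(TPM + 1) of 3.21 ± 0.28 (SD, n = 3). H2afx, the histone variant phosphorylated at breaks, was highest at 54.1 ± 8.66 TPM (SD, n = 3), followed by the fork protection gene Tipin at 41.0 ± 4.397 TPM (SD, n = 3). Atrip, which tethers ATR to single-stranded DNA, had 4.71 ± 2.16 TPM (SD, n = 3), less than Atr in 3 of 3 libraries. Clspn, the mediator between ATR and CHEK1, was low at 3.74 ± 0.695 TPM (SD, n = 3), and Rnf8, a ubiquitin ligase of the break response, was lowest at 3.45 ± 0.261 TPM (SD, n = 3).

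All of the 10 cell cycle genes that the checkpoint acts on reached 1 TPM. Ccnb1, the mitotic cyclin, was highest at 95.3 ± 8.10 TPM (SD, n = 3), and its partner Cdk1 had 45.1 ± 2.81 TPM (SD, n = 3). The inhibitory kinases of Cdk1 were at the low end of the list, Wee1 at 6.11 ± 2.22 TPM and Pkmyt1 at 3.66 ± 1.68 TPM (SD, n = 3). The CDC25 phosphatases, which oppose them and are targets of CHEK1, had 8.85 ± 0.672 TPM for Cdc25c, 8.72 ± 2.65 TPM for Cdc25a and 6.25 ± 1.73 TPM for Cdc25b (SD, n = 3). Wee1 and Cdc25b did not differ beyond their spread. Cdc25c was named after its value was seen, to give the family whole. The mean of Chek1 lay above all 3 phosphatases and both inhibitory kinases.

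Of 13 p53 regulators and paralogs, 11 reached 1 TPM. Usp7, which removes ubiquitin from MDM2 and p53, was highest at 51.0 ± 13.3 TPM (SD, n = 3), and the ubiquitin ligase gene Cop1 had 17.5 ± 5.36 TPM (SD, n = 3). Cdkn2a, a locus whose products include the MDM2 antagonist ARF, was also named after its value was seen and had 4.397 ± 0.446 TPM (SD, n = 3), below Mdm2 in 3 of 3 libraries. The p53 relatives were scarce: Trp63 had 3, 2 and 2 counts, none above the floor of 3, and Trp73 had 27, 12 and 4 counts, a mean of 0.23 TPM. Crebbp, an acetyltransferase gene named here after its value was seen, was the sole gene of these lists called variable between replicates (adjusted p = 0.00803, edgeR goodness-of-fit test), with 135.98, 127.78 and 52.4 TMM-scaled CPM. It stayed below 0.05 without replicate 1, at 0.0391, and was 0.092 without replicate 2 and 0.999 without replicate 3, so its call was lost without either of these libraries.

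Of 24 other p53 target genes, 20 reached 1 TPM and 8 reached 5 TPM. Of all 21897 protein-coding genes, 9680 (44.2%) reached 1 TPM and 5304 reached 5 TPM. The median log2(TPM + 1) of these targets was 1.82 ± 0.21 (SD, n = 3), below that of the 10 members in each library. Over all protein-coding genes the median was 0.54 ± 0.11 (SD, n = 3). Bax, an effector of mitochondrial apoptosis, was highest at 33.4 ± 6.11 TPM (SD, n = 3), followed by Ei24 at 24.3 ± 8.15 TPM, Trp53inp1 at 23.9 ± 5.06 TPM and Aen at 13.1 ± 3.29 TPM (SD, n = 3). Cdkn1a, at 13.8 TPM, lay between Trp53inp1 and Aen in this order, and Ccng1, at 25.2 TPM, between Bax and Ei24. At the low end were Plk2 at 0.737 ± 0.206 TPM, Perp at 0.51 ± 0.176 TPM and Sfn at 0.443 ± 0.038 TPM (SD, n = 3). Fas, a death receptor gene, had 0 counts in every library, which allows up to 3 counts, or 0.263, 0.464 and 0.518 CPM in replicates 1, 2 and 3.

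**Figure D4:**
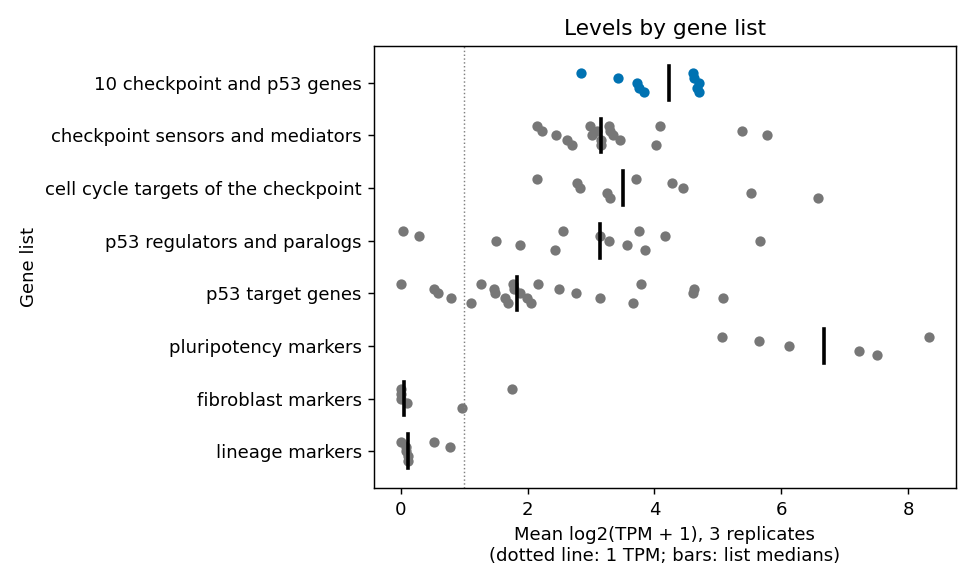
Mean log2(TPM + 1) over the 3 replicates of each gene (points) by list, with the median of the list as a bar and a dotted line at 1 TPM. The 10 checkpoint and p53 genes lie from 2.85 (Atm) to 4.71 (Mdm4), with none between Cdkn1a at 3.84 and Chek1 at 4.61. Other p53 targets reach down to 0, and of the fibroblast and lineage markers Thy1 alone lies above the dotted line.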

How the data were processed

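Directional libraries were made from Trizol-extracted total RNA of E14 cells after removal of DNA and rRNA, per the labels' protocols. The submitters' processing notes name STAR, RSEM and mm10, without roles or versions; the strand setting and annotation release are not given in the sources used here. The authors deposited, per the file headers, estimated counts (expected counts) per gene without normalization, TPM, FPKM (not used), and the length and effective length in nt. Symbols and GRCm38 coordinates came from GENCODE vM21; 55141 of 55487 gene IDs matched. Promoters came from RefSeq (GRCm38.p6) and were searched on both strands for the p53 half-site consensus and 4 short words.

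Means and SDs are over the 3 replicates. Ratios were taken within a library as log2 TPM, and the pseudocount for list medians was 1. Estimated counts were rounded for edgeR 4.0.16 in R 4.3.3: filterByExpr, TMM, trended dispersion, intercept only, and a chi-square test of the deviance with Benjamini-Hochberg adjustment over all genes tested. The code of this test was tried on simulated counts with less scatter than these libraries, so its power here was not measured. Depth was 11420425, 6467405 and 5787357 estimated counts in replicates 1, 2 and 3, and floors cover counting error only. Alternatives were size factors from DESeq2 1.42.0, other filters, pseudocounts, lengths and TPM denominators, and leaving out each replicate. The members, pairs, motifs and lists were chosen with earlier results of these data known. Genes were named from the members, the 4 highest and 4 lowest of each list, genes at or below 3 counts, genome neighbours (starts within 1000 bases, or overlapping) and the nearest in level; others are marked. Clspn was corrected from a misspelt symbol. Python 3.11.15 and scipy 1.17.1 were used.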

Additional observations from a re-analysis of the deposited data

How the results depend on the processing

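The 16 results were recomputed under 98 alternatives, of which 86 stayed within the allowed change and 0 reversed. The allowed change was a set fold for counts of genes and 1 SD for the median level. Only the 5 ratios could be labelled reversed. Each had the same sign in every library, so neither leaving out a replicate nor adding a pseudocount could reverse it. For the 5 ratios the sign alone was judged, so a change in size could not count as moved. The log2 ratio of Mdm2 to Mdm4 went from -1.01 to -2.16 in CPM. That of Chek1 to Chek2 went from 1.27 to 0.67 with the longest annotated transcripts. The median level of the 10 genes, 4.21, was 7.12 in log2(CPM + 1) and 5.61 with genes of effective length under 100 nt left out of the TPM denominator. The number of other p53 targets expressed, 20, was 8 at a limit of 5 TPM. Of the fibroblast markers, 1 at 1 TPM became 0 at 5 TPM, 3 by CPM and 2 with short genes left out, and 1 to 2 without each replicate in turn, the higher without replicate 3. Lineage markers went from 0 to 2 by CPM and to 2 with short genes left out. Apart from the fits that left out a replicate, the unit, limit, length or denominator itself changed in these cases. The number of genes varying between replicates, 232, was 63 to 93 in the fits that each left out 1 replicate (89 without replicate 1, 63 without replicate 2, 93 without replicate 3); the cause was not tested. The 10 members stayed at 0 called in each of these fits. Depth limits genes under 3 counts, whose order is unknown. No paired analysis was possible because the analysed libraries form 1 group.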
